A study of Mus musculus with 18 samples.

Results

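J774 macrophages that had received talc together with 17-β estradiol were compared with J774 macrophages that had received vehicle, across every gene on the array. The members were the 3 arrays described as talc and estrogen and the 3 arrays described as vehicle control, so 6 of the 18 arrays in the series were compared, and the choice used the treatment labels and no measured value. J774 is an established mouse macrophage line. In every group the cells were kept in phenol red-free DMEM with 10% FBS and plated in 24-well plates, and RNA was taken after 24 h. The joint group received talc at 10 µg per well, with estradiol (17-β) at 2 µg/mL. The vehicle group received neither, and the labels do not name its vehicle. Other groups of 3 arrays used below received talc alone, estradiol alone, or TiO2 particles plus estradiol, at the same doses. All groups come from 1 cell line, and nothing in the labels tells separate cultures from repeat arrays of one culture. The p-values therefore measure the spread between these arrays, which may be technical.

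Talc is a hydrated magnesium silicate mineral used in powders. Macrophages take up mineral particles by phagocytosis, and particle uptake is known to engage mitogen-activated protein kinases and the transcription factors AP-1 and NF-kB, which switch on genes for cytokines, prostaglandin synthesis and their own inhibitors. Estradiol acts through the nuclear receptors ESR1 and ESR2, which bind DNA, and through the membrane receptor GPER1.

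Levels are given as log2 of the deposited array intensity, averaged over the probe sets of a gene, and a change of 1 on this scale is a 2-fold difference. Median intensity was 45.6 to 48.0 units per array over the 18 arrays, and the number of arrays limits the precision. The median standard deviation within a group was 0.144 log2 units for talc plus estradiol and 0.153 for vehicle. On the first principal component of all 18 arrays, which held 20% of the variance, the joint arrays lay at 20.66 to 22.94 and the vehicle arrays at -12.68 to -7.51. The talc-alone arrays lay at 21.94 to 27.09 on it and the estradiol-alone arrays at -12.84 to -10.29. All 21 measured genes of a macrophage list, among them the CSF1 receptor gene Csf1r and the lineage factor Spi1, lay above the median level of all genes. The summed intensity of that list was 19656 to 20645 in joint arrays and 20353 to 20816 in vehicle arrays. Of markers of other cell types, 3 of 10 fibroblast, 2 of 10 epithelial, 1 of 10 dendritic, 0 of 10 granulocyte and mast cell, and 0 of 8 lymphocyte genes lay above that median.

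Most genes that passed differed by under 2-fold. Of 23102 genes, 1527 passed at an adjusted p under 0.05 (6.61%, and 4227 or 18.3% at an unadjusted p under 0.05), with 784 higher (3.39%) and 743 lower (3.22%) in talc plus estradiol than in vehicle. The test was limma's moderated test with one mean per group over all 18 arrays and Benjamini-Hochberg adjustment over all genes. At least 2-fold changes that passed numbered 37 higher (0.16%) and 43 lower (0.186%). The 3 joint arrays and the 3 vehicle arrays did not overlap for 782 of the 784 higher genes and 740 of the 743 lower genes, while among all genes 13.2% lay wholly higher and 11.9% wholly lower. The plot of all genes shows both arms. The count fell to 798 without joint array 3, 948 without joint array 1, 915 without vehicle array 2 and 918 without vehicle array 1. It was 825 with only the brightest probe set of each gene. In such bulk RNA, a lower level in every cell and fewer cells that express the gene cannot be told apart.

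**Figure D1:**
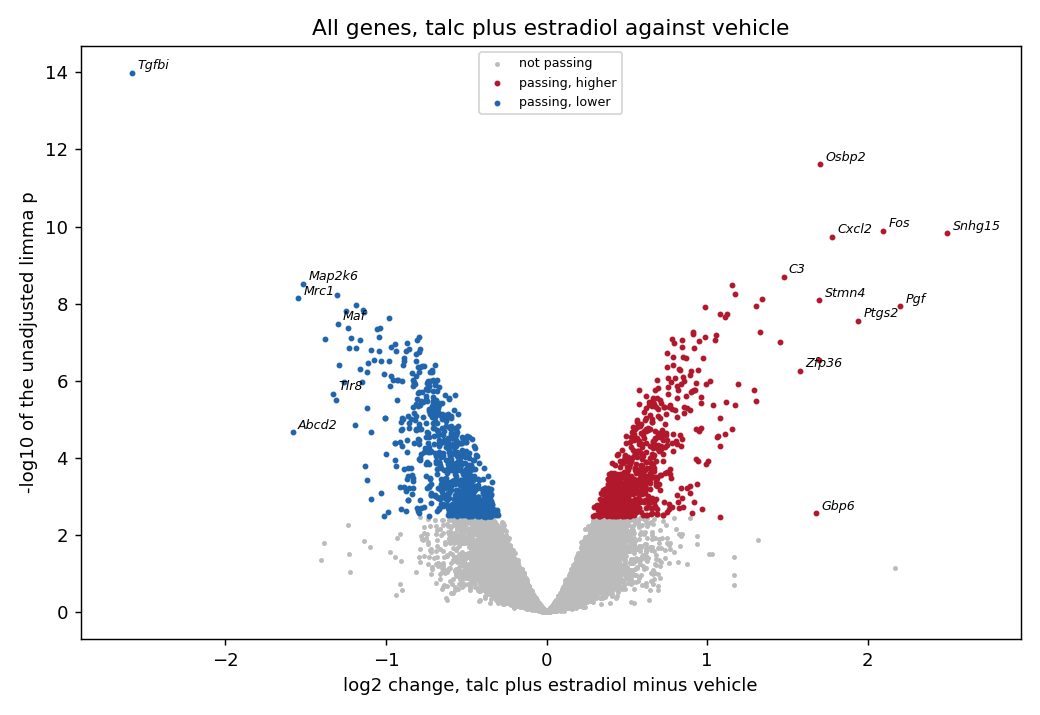
Each point is a gene, with the log2 difference of talc plus estradiol minus vehicle on the x axis and minus log10 of the unadjusted p on the y axis, and genes past an adjusted p of 0.05 are coloured. The 784 higher and 743 lower genes form arms of similar size, with Snhg15 at 2.49 and Tgfbi at -2.58 as the outermost named genes.

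The steepest rise among named genes belonged to a host gene of small nucleolar RNAs, and the next to growth factor, AP-1 and prostaglandin genes. Genes with the largest rises and falls were named only where joint and vehicle arrays did not overlap. Separation of the groups in these genes was therefore a condition of the choice and is no further result. It holds below for Fos, Cxcl2, Zfp36, Ptgs2, Acod1, Clec4n, Gadd45b, Tgfbi, Mrc1, Map2k6, Tlr7, Tlr8, P2ry12, P2ry13, Maf, Abcd2, Rasgrp3 and Slc9a9. Snhg15, whose introns carry small nucleolar RNA, read 8.70, 8.55 and 9.04 in talc plus estradiol, against 6.21, 6.37 and 6.23 in vehicle. Its joint arrays lay above all vehicle arrays, by 2.49 ± 0.18 (SE, n = 3 each; limma adjusted p = 8.6e-07), a 5.63-fold difference. Pgf, the placental growth factor of the VEGF family, read 5.57, 5.58 and 5.65 in joint arrays, against 3.16, 3.56 and 3.48 in vehicle arrays. The groups did not overlap, and Pgf was 2.20 ± 0.21 higher (limma adjusted p = 1.7e-05), although its brightest probe set alone gave 2.00 with an adjusted p of 0.25. The vehicle levels of Pgf lay below the lower quartile of probe set intensity. Osbp2, an oxysterol-binding protein, read 7.60, 7.44 and 7.46 in talc plus estradiol, against 5.83, 5.67 and 5.89 in vehicle, and was 3.26-fold higher with all joint arrays on top. Stmn4, a stathmin family gene, read 6.06, 6.23 and 6.43 in joint arrays, against 4.40, 4.89 and 4.34 in vehicle arrays. Hilpda, which encodes a lipid droplet protein, read 8.33, 8.62 and 8.27 in joint arrays, against 7.15, 7.22 and 6.82 in vehicle arrays. For both genes the groups were separate, with rises of 1.70 and 1.34. Complement C3 read 9.71, 9.51 and 9.60 in talc plus estradiol, against 8.10, 8.11 and 8.20 in vehicle, a rise of 1.48 ± 0.13. Gbp6, an interferon-inducible GTPase measured by 1 probe set, read 4.87, 3.11 and 3.20 in joint arrays, against 2.19, 1.90 and 2.07 in vehicle arrays. Joint array 1 stood far above the others, and without it the rise of 1.68 (limma adjusted p = 0.044) became 1.10 with an adjusted p of 0.21. The call was also lost without joint array 3 or any 1 vehicle array (limma adjusted p 0.057 to 0.13). Only the omission of joint array 2 kept it, and the vehicle levels lay below the lower quartile of probe set intensity.

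**Figure D2:**
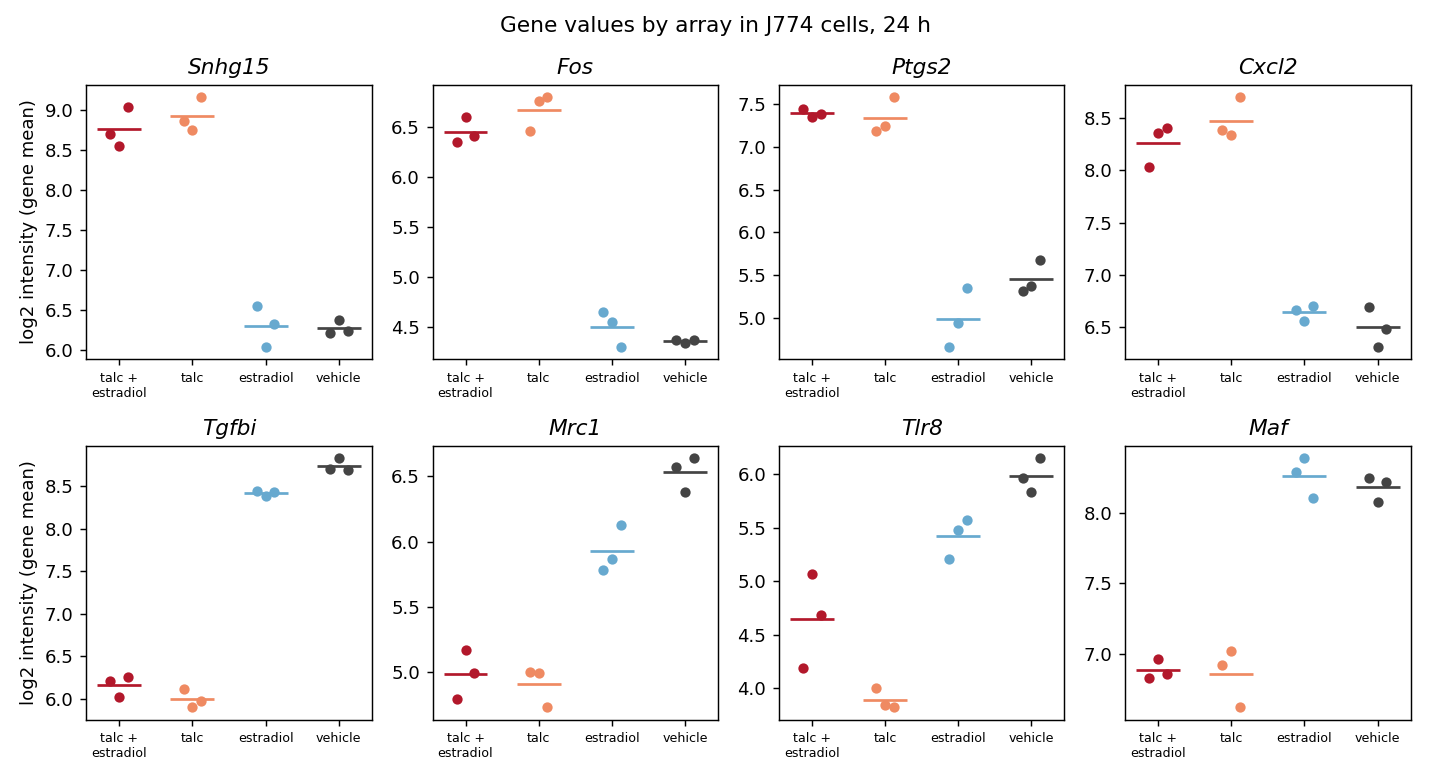
Log2 intensity of 8 genes, 1 point per array and a line at each mean, for talc plus estradiol, talc, estradiol and vehicle. Snhg15, Fos, Ptgs2 and Cxcl2 are high in both talc-containing groups and Tgfbi, Mrc1, Tlr8 and Maf are low in them.

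Immediate early genes of the AP-1 and EGR list, which also holds KLF, NR4A and other factors, rose or did not pass, and none fell. Of 22 measured, 8 rose and 0 fell, with a median of 0.27 beside 0.003 over all genes. Counts in this and the later lists stand beside 3.39% of all genes higher and 3.22% lower. Fos, the AP-1 subunit that pairs with JUN proteins, read 6.35, 6.60 and 6.41 in talc plus estradiol, against 4.37, 4.34 and 4.37 in vehicle. Every joint array was higher, by 2.09 ± 0.15 (limma adjusted p = 8.6e-07), a 4.27-fold difference. Fosl2, another FOS-type subunit, read 8.77, 8.76 and 8.76 in joint arrays, against 7.69, 7.85 and 7.83 in vehicle arrays. Junb read 8.69, 8.61 and 8.85 in joint arrays, against 7.90, 7.80 and 7.95 in vehicle arrays. Both rose with no overlap, by 0.98 and 0.83. The count of 8 became 5 without joint array 1, joint array 2 or vehicle array 1, and 4 with the brightest probe set.

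The kinase pathway upstream of AP-1 moved in both directions, with 5 of 24 MAP kinase and DUSP phosphatase genes higher and 3 lower (median -0.04). Dusp1, a phosphatase that switches off p38 and JNK, read 10.24, 10.38 and 10.26 in joint arrays, against 9.38, 9.35 and 9.47 in vehicle arrays. It rose by 0.90, and Dusp5, Dusp4, Dusp8 and Dusp16 rose by 0.87, 0.58, 0.48 and 0.47. Map2k6, the kinase that activates p38, read 4.44, 4.40 and 4.64 in talc plus estradiol, against 5.92, 5.95 and 6.14 in vehicle. It was lower in every joint array, at 0.35 of the vehicle level (-1.51 ± 0.13, limma adjusted p = 9.3e-06). Map3k5, which feeds p38 and JNK, fell by 0.61, and the ERK phosphatase gene Dusp6 fell by 0.55. Dusp8 lost its call without joint array 1, vehicle array 1 or vehicle array 2, and Dusp16 without joint array 3 or vehicle array 1 (limma adjusted p up to 0.082 and 0.061). With the brightest probe set Dusp8, Dusp16 and Map3k5 lost theirs, at 0.31, 0.35 and -0.44.

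Of 24 measured NF-kB subunit, inhibitor and feedback genes, 15 rose and 0 fell (median 0.44). Tnfaip3, the A20 protein that restrains NF-kB, read 7.10, 7.14 and 7.13 in joint arrays, against 6.22, 6.20 and 6.17 in vehicle arrays. It rose by 0.93 ± 0.12 (limma adjusted p = 0.00022). Icam1, an adhesion molecule and NF-kB target, read 9.10, 9.14 and 9.18 in talc plus estradiol, against 8.39, 8.38 and 8.30 in vehicle. It rose by 0.78, and in both genes the 3 joint arrays were well above the 3 vehicle arrays. Nfkbia, the inhibitor IkB-alpha, read 9.04, 8.93 and 9.09 in joint arrays, against 8.61, 8.62 and 8.60 in vehicle arrays, a separate but smaller rise of 0.41. The adaptor Traf1 rose by 0.95, Nfkbie by 0.79, Nfkb2 by 0.69 and Relb by 0.53. Nfkb1, the p105 subunit, did not pass at -0.15 ± 0.08 (limma adjusted p = 0.34). Without vehicle array 1 the count was 8, and without joint array 1 or joint array 3 it was 9. Nfkbia kept its call without joint array 2 and lost it without any other array of these groups (limma adjusted p up to 0.095), and Relb lost it without vehicle array 1 (0.063). The brightest probe set of Nfkbia gave 0.47 with an adjusted p of 0.076.

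Of 9 motifs searched, an NF-kB motif, GGGANTTNC, is given first. It was searched on both strands of RefSeq promoters (GRCm38.p6, 250 bases before to 50 after each start). It stood in 4.26% of 32851 promoters of all genes, in 10 of 25 promoters (40.0%) of the NF-kB list and in 6 of 21 (28.6%) of the cytokine list. The 10 promoters belonged to 8 genes. The NF-kB list was written from NF-kB and feedback genes, so its share describes the list and not the exposure. The motif also stood in 4 of 25 promoters of the mitosis list, whose genes fell. Among all genes that passed it stood in 6.72% of the promoters of those higher and 4.51% of those lower. The AP-1 motif TGANTCA stood in 7.81% of all promoters, in 0 of 23 of the AP-1 and EGR list, and in 4.65% of the promoters of genes higher and 6.16% of those lower. The remaining motifs were those given with the mitosis genes, TGACGTCA, TATAAA, and the serum and estrogen response elements. TGACGTCA stood in 1.79% of all promoters, 4.39% of those of genes higher and 2.87% of those of genes lower. In the same order, TATAAA stood in 13.6%, 9.04% and 7.66%. The estrogen response element stood in 0.07%, 0.129% and 0.137%, and the serum response element in 0.0639%, 0% and 0.274%. A match describes the letters and not a bound site. The promoters of Cxcl2 (chr5:90903649-90903948, plus strand) and Nfkbia (chr12:55492598-55492897, minus strand) are shown because both genes rose and hold it, in capitals. The match began 97 bases upstream of the start in Cxcl2, and 113 and, on the other strand, 28 bases upstream in Nfkbia.
Cxcl2: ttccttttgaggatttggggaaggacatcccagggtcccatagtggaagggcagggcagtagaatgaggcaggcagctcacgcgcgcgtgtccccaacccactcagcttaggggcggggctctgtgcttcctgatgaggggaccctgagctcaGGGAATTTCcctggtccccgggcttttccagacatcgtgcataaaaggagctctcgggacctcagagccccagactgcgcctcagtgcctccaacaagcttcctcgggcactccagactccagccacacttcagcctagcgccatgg
Nfkbia: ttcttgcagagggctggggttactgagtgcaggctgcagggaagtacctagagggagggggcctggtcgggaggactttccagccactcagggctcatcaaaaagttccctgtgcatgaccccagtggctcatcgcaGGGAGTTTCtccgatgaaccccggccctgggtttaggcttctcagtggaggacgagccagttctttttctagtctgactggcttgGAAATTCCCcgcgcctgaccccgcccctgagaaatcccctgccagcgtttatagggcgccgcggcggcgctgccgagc

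Cytokine and chemokine genes rose in part, 9 of 29 higher and 1 lower (median 0.25). Cxcl2, a chemokine that draws neutrophils, read 8.03, 8.36 and 8.41 in talc plus estradiol, against 6.69, 6.31 and 6.48 in vehicle. It was 3.42-fold higher with no overlap (1.77 ± 0.13, limma adjusted p = 8.6e-07). Osm, the cytokine oncostatin M, read 7.85, 7.56 and 7.87 in joint arrays, against 6.52, 6.81 and 6.58 in vehicle arrays. Il1rn, the interleukin-1 receptor antagonist, read 7.87, 7.74 and 8.03 in joint arrays, against 6.70, 6.83 and 6.87 in vehicle arrays. Both rose by over 1 log2 unit, at 1.12 and 1.08, and Il1b itself rose by 0.93, its arrays lying between 4.58 and 4.91 with talc plus estradiol and between 3.52 and 4.07 with vehicle. Tnf read 10.08, 9.95 and 10.06 in talc plus estradiol, against 9.26, 9.39 and 9.41 in vehicle, a rise of 0.68. Ccl22, Ccl7, Csf1 and Ccl3 rose by 0.72, 0.64, 0.61 and 0.58, while Il18, an inflammasome-processed cytokine, fell by 0.54. Ccl2 and Il6 did not pass, at 0.39 ± 0.34 and 0.20 ± 0.17. With the brightest probe set the list's count was 5, where Ccl7 stood at -0.002 and Ccl22 at 0.19 (adjusted p = 0.92 for Ccl22 in limma). Il1b, Csf1 and Il18 also lost their calls there, at 1.13, 1.25 and -0.38. Il18 lost its call without any 1 array of these groups (limma adjusted p up to 0.12). Csf1 lost it without joint array 1, joint array 2, vehicle array 1 or vehicle array 2, and Ccl7 without joint array 2, joint array 3 or vehicle array 3.

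Zfp36, whose product tristetraprolin degrades cytokine mRNA, read 8.69, 8.87 and 8.74 in joint arrays, against 6.78, 6.98 and 7.80 in vehicle arrays. The lowest joint array lay above the highest vehicle array, and the rise was 1.58 ± 0.20 (limma adjusted p = 0.00014). Among TNF superfamily genes 4 of 22 rose and 2 fell. Tnfrsf12a, the receptor for TWEAK, rose by 0.82. Tnfsf13b, the B-cell survival ligand BAFF, read 5.96, 6.08 and 5.86 in talc plus estradiol, against 7.24, 7.16 and 7.05 in vehicle, and fell by 1.19. That count of 6 became 3 without joint array 1, joint array 3 or any 1 of the 3 vehicle arrays.

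Prostaglandin and leukotriene genes moved in both directions, with 2 of 17 higher and 5 lower (median 0.07). Ptgs2, the inducible cyclooxygenase, read 7.44, 7.35 and 7.39 in joint arrays, against 5.31, 5.37 and 5.68 in vehicle arrays. It rose 3.84-fold (1.94 ± 0.20, limma adjusted p = 2.6e-05), all joint arrays lying higher. Ptgs1, the constitutive cyclooxygenase, fell by 0.58. Hpgds, which makes prostaglandin D2, read 8.50, 8.57 and 8.40 in talc plus estradiol, against 9.28, 9.19 and 9.26 in vehicle. Alox5, the first enzyme of leukotriene synthesis, read 8.86, 8.74 and 8.71 in joint arrays, against 9.51, 9.43 and 9.60 in vehicle arrays. Both fell, by 0.75 and 0.74, with no overlap. The other gene that rose was Ptger2, a prostaglandin receptor gene. Its call was lost without joint array 1, joint array 3, vehicle array 2 or vehicle array 3 (limma adjusted p 0.052 to 0.11). The list's count of 7 was 4 without joint array 3.

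Oxidant genes were higher in 4 of 13 and lower in 0. Acod1, which makes itaconate, read 5.28, 5.21 and 5.33 in joint arrays, against 3.94, 4.01 and 3.95 in vehicle arrays, a separate rise of 1.30 ± 0.19 (limma adjusted p = 0.00044). Its brightest probe set alone gave 0.91 with an adjusted p of 0.12. NADPH oxidase subunits Cyba, Ncf4 and Cybb rose by 0.40, 0.34 and 0.34, and the nitric oxide synthase gene Nos2 did not pass at 0.39 ± 0.17. Of 27 NRF2 target and antioxidant genes, 6 rose and 1 fell (median 0.12). Hmox1, heme oxygenase 1, read 10.08, 10.01 and 9.85 in talc plus estradiol, against 9.14, 9.19 and 9.34 in vehicle. Txnrd1, thioredoxin reductase 1, read 9.61, 9.65 and 9.67 in joint arrays, against 8.89, 9.05 and 8.94 in vehicle arrays. Joint arrays were higher throughout in both genes, by 0.76 and 0.69. Slc7a11, the cystine transporter, fell by 0.58. Cyba and Ncf4 lost their calls without any 1 array of these groups, Cybb without any but vehicle array 3, and Slc7a11 without any but vehicle array 1 (limma adjusted p up to 0.18, for Cyba). The oxidant count of 4 was 2 without vehicle array 3, 1 without any other 1 array of these groups and 0 with the brightest probe set. That setting also ended the calls for Txnrd1 and Slc7a11, at 0.43 and -0.64.

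Receptors for particles and microbes changed in both directions. Of 30 phagocytic and scavenger receptor genes, 4 rose and 5 fell (median -0.07). Clec4n, the lectin receptor Dectin-2, read 7.33, 7.25 and 7.56 in joint arrays, against 5.25, 5.86 and 5.95 in vehicle arrays. It was 3.24-fold higher with no overlap. Its relative Clec4d read 10.00, 10.12 and 10.09 in talc plus estradiol, against 9.16, 9.22 and 9.22 in vehicle. Clec4d rose by 0.87 and Clec4e, the receptor Mincle, by 0.56. Mrc1, the mannose receptor, read 4.79, 5.17 and 4.99 in joint arrays, against 6.57, 6.38 and 6.64 in vehicle arrays. It lay lower in all joint arrays, at 0.343 of the vehicle level (-1.54 ± 0.14, limma adjusted p = 1.4e-05). Clec7a, the beta-glucan receptor Dectin-1, fell by 0.62 and the inhibitory Fc receptor Fcgr2b by 0.60. The call for Clec7a was lost without any 1 array of these groups (limma adjusted p up to 0.11).

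Of 21 Toll-like receptor and adaptor genes, the receptor genes Tlr7, Tlr8 and Tlr5 fell and Irak2, Myd88 and Cd14 rose (median 0.02). Tlr7, a sensor of single-stranded RNA, read 6.73, 6.46 and 6.60 in joint arrays, against 7.72, 7.81 and 8.01 in vehicle arrays, and fell by 1.25 ± 0.12 (limma adjusted p = 1.9e-05). Tlr8 read 4.19, 5.07 and 4.68 in talc plus estradiol, against 5.96, 5.83 and 6.15 in vehicle. It spread more widely in the joint group but did not overlap, and fell by 1.33. Tlr5, the flagellin receptor, fell by 0.70. The kinase Irak2, the adaptor Myd88 and the co-receptor Cd14 rose by 0.42, 0.40 and 0.34. The calls for Irak2, Myd88 and Cd14 were each lost with the brightest probe set and without 4 or more of the 6 arrays taken singly (limma adjusted p up to 0.19, for Irak2 without joint array 3). The list's count of 6 was 3 without joint array 1, joint array 3 or vehicle array 2.

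Purinergic receptors had 3 of 13 genes higher and 2 lower. The ADP receptor genes P2ry13 and P2ry12 carried the falls. P2ry13 read 5.15, 5.18 and 5.19 in joint arrays, against 6.74, 6.58 and 6.34 in vehicle arrays. P2ry12 read 4.91, 5.18 and 5.17 in talc plus estradiol, against 6.18, 6.39 and 6.63 in vehicle. Neither overlapped, and the falls were 1.38 and 1.31. P2ry2, a receptor for ATP and UTP, rose by 0.84. The count of 5 was 3 without any 1 joint array, vehicle array 2 or vehicle array 3.

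The largest fall of all belonged to Tgfbi, a secreted matrix protein induced by TGF-beta and abundant in macrophages. It read 6.21, 6.02 and 6.26 in talc plus estradiol, against 8.70, 8.83 and 8.69 in vehicle. Joint arrays held 0.167 of the vehicle level (-2.58 ± 0.10, limma adjusted p = 2.4e-10), and the groups were more than 2 log2 units apart. Maf, a transcription factor of resident-type macrophages, read 6.83, 6.96 and 6.86 in joint arrays, against 8.25, 8.08 and 8.22 in vehicle arrays. It fell by 1.30, and with the integrin gene Itgam, down by 0.35, these were the 3 of 21 macrophage regulators that passed, all lower (median 0.03). The call for Itgam was lost without any 1 array of these groups (limma adjusted p up to 0.14), and its brightest probe set gave -0.18. Csf1r and Spi1 did not pass: Csf1r read 10.86, 10.72 and 10.92 in joint arrays, against 10.88, 10.92 and 10.94 in vehicle arrays. Csf1r overlapped between the groups.

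Other large falls were of membrane and signalling genes. Abcd2, a peroxisomal fatty acid transporter, read 5.76, 5.58 and 4.65 in joint arrays, against 6.88, 6.98 and 6.89 in vehicle arrays. It fell by 1.58, with joint array 3 lowest, and its brightest probe set gave -1.33 with an adjusted p of 0.058. Rasgrp3, an activator of Ras, read 7.56, 7.74 and 7.61 in talc plus estradiol, against 8.82, 8.88 and 8.92 in vehicle. Slc9a9, an endosomal sodium/proton exchanger, read 6.95, 6.85 and 6.80 in joint arrays, against 8.14, 8.09 and 8.04 in vehicle arrays. Both lay lower in all joint arrays, by 1.24 and 1.22. Cd109, St6gal1 (a sialyltransferase) and Cd300lg fell by 1.30, 1.29 and 1.26. Lifr, the LIF receptor subunit, averaged 1.23 lower, but its brightest probe set gave 0.13.

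Growth factor and matrix genes leaned upward, with 7 of 28 higher and 1 lower. Pdgfb, a platelet-derived growth factor chain, read 11.26, 11.05 and 11.17 in joint arrays, against 10.17, 10.40 and 10.37 in vehicle arrays, a separate rise of 0.85. The urokinase receptor gene Plaur, osteopontin (Spp1) and gelatinase B (Mmp9) rose by 0.69, 0.57 and 0.54. Urokinase itself, Plau, fell by 0.45. With the brightest probe set the count of 8 was 4, and Spp1, Mmp9 and Plau lost their calls at 0.30, 0.52 and -0.26.

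Mitosis genes were lower almost throughout. Of 29 measured, 26 fell and 0 rose, all 29 had a negative difference, and the median was -0.71. Nusap1, a spindle microtubule protein, read 7.20, 7.41 and 7.24 in joint arrays, against 8.31, 8.46 and 8.63 in vehicle arrays. Kif11, the kinesin that separates spindle poles, read 8.63, 8.83 and 8.68 in talc plus estradiol, against 9.67, 9.78 and 9.85 in vehicle. Ccnb2, a mitotic cyclin, read 9.48, 9.54 and 9.53 in joint arrays, against 10.25, 10.19 and 10.20 in vehicle arrays. None of these overlapped, and the falls were 1.18, 1.05 and 0.69. Top2a, which untangles chromosomes, and the chromosomal kinase gene Aurkb fell by 0.97 and 0.90. Bub1, Cdk1 and Cdc20 did not pass, at -0.36, -0.32 and -0.10. The count was 21 to 26 when 1 array was left out.

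DNA replication genes fell in 17 of 29 and rose in 0 (median -0.47). Rrm2, a subunit of the enzyme that makes deoxyribonucleotides, read 7.70, 7.92 and 7.89 in joint arrays, against 8.74, 8.75 and 8.97 in vehicle arrays. Mcm3, part of the replicative helicase, read 9.38, 9.44 and 9.42 in talc plus estradiol, against 10.11, 10.04 and 10.23 in vehicle. Both were separate, at -0.98 and -0.72. Of 23 G1/S genes 11 fell and 2 rose (median -0.36). Cdkn2c, the inhibitor p18 of CDK4 and CDK6, read 7.16, 7.02 and 6.97 in joint arrays, against 8.21, 8.28 and 8.08 in vehicle arrays, and fell by 1.14. Cdkn1a, the inhibitor p21, read 9.10, 9.25 and 9.46 in talc plus estradiol, against 8.44, 8.88 and 8.54 in vehicle, and rose by 0.65 ± 0.14 (limma adjusted p = 0.011). Its call was lost without joint array 3 (0.068) or vehicle array 1. E2f8, Ccne2 and Ccnd1 fell by 1.19, 0.80 and 0.57. The G1/S count of 13 was 6 without joint array 3, 7 without vehicle array 1 and 8 without vehicle array 2.

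Promoters of these genes were searched on both strands for CCAAT, the letters bound by NF-Y, for TTTGAA, the CHR element of mitotic genes, and for TTTGGCGC, an E2F-type motif, and a base could count for more than 1 motif. CCAAT stood in 76.0% of 25 mitosis promoters and 37.4% of all promoters, and TTTGAA in 76.0% and 17.9%. CCAAT also stood in 88.2% of 17 endoplasmic reticulum chaperone promoters and 82.4% of 17 cholesterol synthesis promoters, lists in which 3 of 20 and 1 of 18 genes passed. TTTGGCGC stood in 17.2% of 29 DNA replication promoters and 0.514% of all. The lists were written by gene function, so these shares describe the lists and not the exposure. Among all passing genes, TTTGAA stood in 11.5% of promoters of those higher and 21.1% of those lower. Kif11 (chr19:37376132-37376431, plus strand), Ccnb2 (chr9:70421505-70421804, minus strand) and Mcm3 (chr1:20820263-20820562, minus strand) are shown because they fell and carry these letters. Capitals mark matches on either strand, of CCAAT and TTTGAA in Kif11 and Ccnb2 and of CCAAT and TTTGGCGC in Mcm3. The CCAAT matches of Ccnb2 began 87, 54 and 21 bases upstream of the start and one TTTGAA began 4 bases after it.
Kif11: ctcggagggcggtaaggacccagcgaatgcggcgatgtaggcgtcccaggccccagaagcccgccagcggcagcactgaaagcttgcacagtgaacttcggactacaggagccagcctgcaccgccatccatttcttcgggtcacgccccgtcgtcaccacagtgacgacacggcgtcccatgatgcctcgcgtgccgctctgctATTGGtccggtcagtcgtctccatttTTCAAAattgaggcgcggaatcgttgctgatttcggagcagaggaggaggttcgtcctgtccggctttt
Ccnb2: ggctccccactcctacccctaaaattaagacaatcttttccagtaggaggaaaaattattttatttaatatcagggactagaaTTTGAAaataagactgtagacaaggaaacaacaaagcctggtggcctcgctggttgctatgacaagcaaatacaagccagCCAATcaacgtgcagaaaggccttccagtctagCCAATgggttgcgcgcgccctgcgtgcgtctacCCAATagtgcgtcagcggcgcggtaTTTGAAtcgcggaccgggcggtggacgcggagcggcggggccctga
Mcm3: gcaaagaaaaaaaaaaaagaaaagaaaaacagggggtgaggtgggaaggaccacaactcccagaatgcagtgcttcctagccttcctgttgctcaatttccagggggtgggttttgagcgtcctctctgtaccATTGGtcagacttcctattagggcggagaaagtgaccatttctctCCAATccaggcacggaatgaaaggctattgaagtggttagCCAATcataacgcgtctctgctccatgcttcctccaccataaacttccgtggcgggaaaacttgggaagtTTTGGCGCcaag

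Genes of the p53 target list moved mainly upward, 10 of 24 higher and 1 lower (median 0.35). Whether p53 acted on them was not tested. Gadd45b, a stress-induced growth arrest protein, read 8.37, 8.26 and 8.52 in joint arrays, against 6.91, 7.17 and 7.08 in vehicle arrays. It rose by 1.33 ± 0.14 (limma adjusted p = 4e-05) with no overlap. The nuclease gene Aen, the polo-like kinase genes Plk3 and Plk2, and Mdm2, which degrades p53, rose by 1.06, 1.02, 0.80 and 0.68. The cyclin gene Ccng2 fell by 0.51. The count of 11 was 6 without joint array 3 and 7 without vehicle array 1. Mdm2 lost its call without vehicle array 1 (limma adjusted p = 0.058) and Ccng2 without any array but vehicle array 3. Ccng2 also lost it with the brightest probe set, where the count was 7.

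Ribosome biogenesis genes were higher in 21 of 30 and lower in 0 (median 0.58). Nop2, a nucleolar RNA methyltransferase, read 9.90, 9.79 and 10.05 in talc plus estradiol, against 8.74, 8.70 and 8.82 in vehicle. Rrp12, an export factor of pre-ribosomes, read 7.78, 7.67 and 7.89 in joint arrays, against 6.62, 6.29 and 6.52 in vehicle arrays. Both rose with no overlap, by 1.16 and 1.30. All 27 probe sets of Rrp12 were higher, although the brightest alone gave 0.07. Gnl3, Bop1, Polr1b (a subunit of RNA polymerase I) and Nop58 rose by 0.96, 0.81, 0.81 and 0.75. Of 16 small nucleolar RNA host genes 4 rose. Besides Snhg15 these were Snhg12, Snhg1 and Snhg17, at 1.45, 0.84 and 0.81. The brightest probe set of Snhg17 gave 0.15 with an adjusted p of 0.87.

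**Figure D3:**
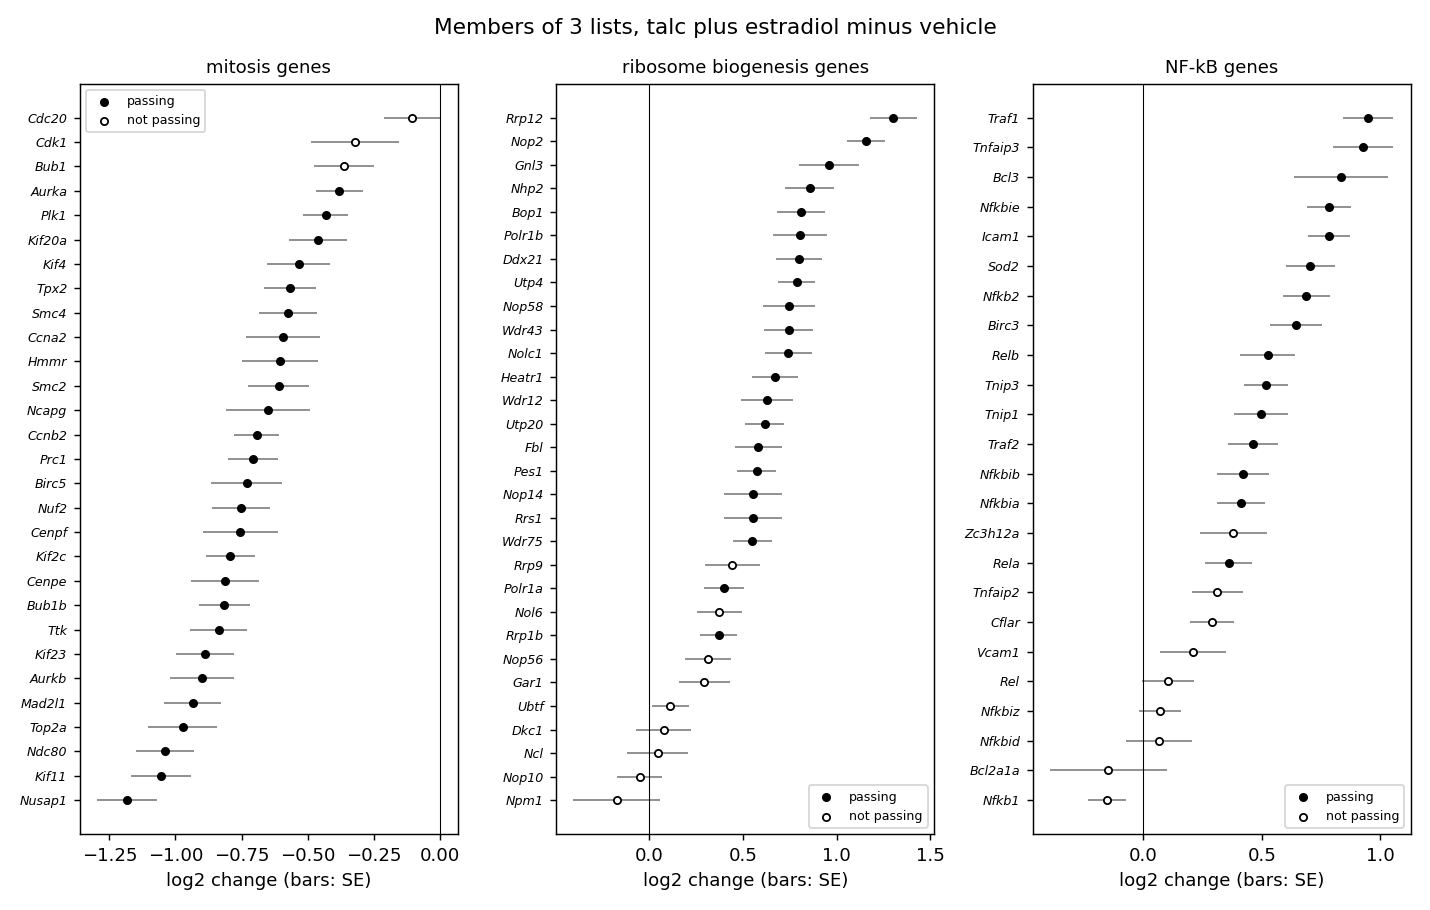
Log2 difference of talc plus estradiol minus vehicle with its standard error, for each measured mitosis, ribosome biogenesis and NF-kB gene, filled where the gene passed. All 29 mitosis genes lie below 0, and the 21 passing ribosome biogenesis genes and 15 passing NF-kB genes lie above 0.

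Other stress lists were mixed. Of 26 integrated stress response and amino acid genes, 3 rose and 5 fell (median -0.07). Ddit3, the transcription factor CHOP, read 8.24, 8.42 and 8.40 in joint arrays, against 7.22, 7.42 and 7.28 in vehicle arrays. Ppp1r15a, a phosphatase subunit that restores translation, read 7.74, 7.82 and 7.98 in talc plus estradiol, against 6.78, 6.83 and 6.60 in vehicle. Both rose, by 1.05 and 1.11, with all joint arrays higher. Slc7a5, an amino acid transporter, and Psat1, of serine synthesis, fell by 0.80 and 0.58. Endoplasmic reticulum chaperone genes fell in 3 of 20 and rose in 0, and heat shock genes rose in 3 of 18 and fell in 0. The chaperone count was 1 without any 1 array of these groups other than joint array 2, and the heat shock count was 1 without joint array 2 or vehicle array 2. Both were 1 with the brightest probe set, and the integrated stress response count of 8 was then 4.

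Of 35 interferon response genes, 1 was higher and 3 were lower (11.4% passing beside 6.61% of all genes, median -0.08). Ifi44 read 6.62, 5.93 and 6.07 in joint arrays, against 6.98, 7.24 and 7.49 in vehicle arrays, and fell by 1.03 ± 0.25 (limma adjusted p = 0.02). Ifit2, an RNA-binding antiviral protein, fell by 0.83. In antigen presentation, 1 of 20 genes passed. It was Ciita, the master regulator of MHC class II, which fell by 0.72. Without joint array 3 none of Ifi44, Ifit2 and Ciita kept its call (limma adjusted p = 0.086, 0.051 and 0.066). Ifi44 also lost it without joint array 2, vehicle array 2 or vehicle array 3, and Ciita without vehicle array 1. The brightest probe set gave -0.14 for Ciita (limma adjusted p = 0.88) and -0.90 for Ifi44 (0.073). The interferon count of 4 was 1 without joint array 3 and 2 without joint array 2, vehicle array 2 or vehicle array 3. Passing members were 1 of 18 in cholesterol synthesis (5.56%), 3 of 22 in LXR and fatty acid (13.6%) and 4 of 29 in lysosomal genes (13.8%). They were 2 of 24 in glycolysis and hypoxia (8.33%) and 3 of 14 in inflammasome genes (21.4%), beside 6.61% of all genes. The cholesterol gene Insig1 lost its call without any 1 array of these groups (limma adjusted p = 0.052 to 0.084). The lysosomal count was 1 with the brightest probe set, without joint array 3 or without vehicle array 1, and 2 without joint array 2 or vehicle array 3. The inflammasome count was 0 without vehicle array 2 and 1 without joint array 1 or joint array 3. The glycolysis count was 1 without any 1 array other than joint array 2. Of 16 iron and metal genes 1 rose, the transferrin receptor gene Tfrc by 0.54, and 4 fell, among them the metallothionein gene Mt1 by 0.34. The count of 5 was 0 without joint array 3 or vehicle array 2, and 1 or 2 without any other array of these groups. With the brightest probe set Tfrc and Mt1 also lost their calls, at 0.50 and -0.40. Of other cell types' markers, Lum rose by 0.60 and Pdgfra fell by 0.79 among 10 fibroblast genes and Cd79b fell by 0.73 among 8 lymphocyte genes, while no epithelial, granulocyte or dendritic marker passed. Lum and Cd79b each lost their call without 5 of the 6 arrays taken singly (limma adjusted p up to 0.22 and 0.21), Lum keeping it without joint array 2 and Cd79b without vehicle array 3. With the brightest probe set Lum, Pdgfra and Cd79b stood at 0.90, -0.17 and -0.13, and none passed. The summed fibroblast level was 202 to 224 intensity units in joint arrays and 236 to 239 in vehicle arrays. The part of other cell types in these results was not tested.

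**Figure D4:**
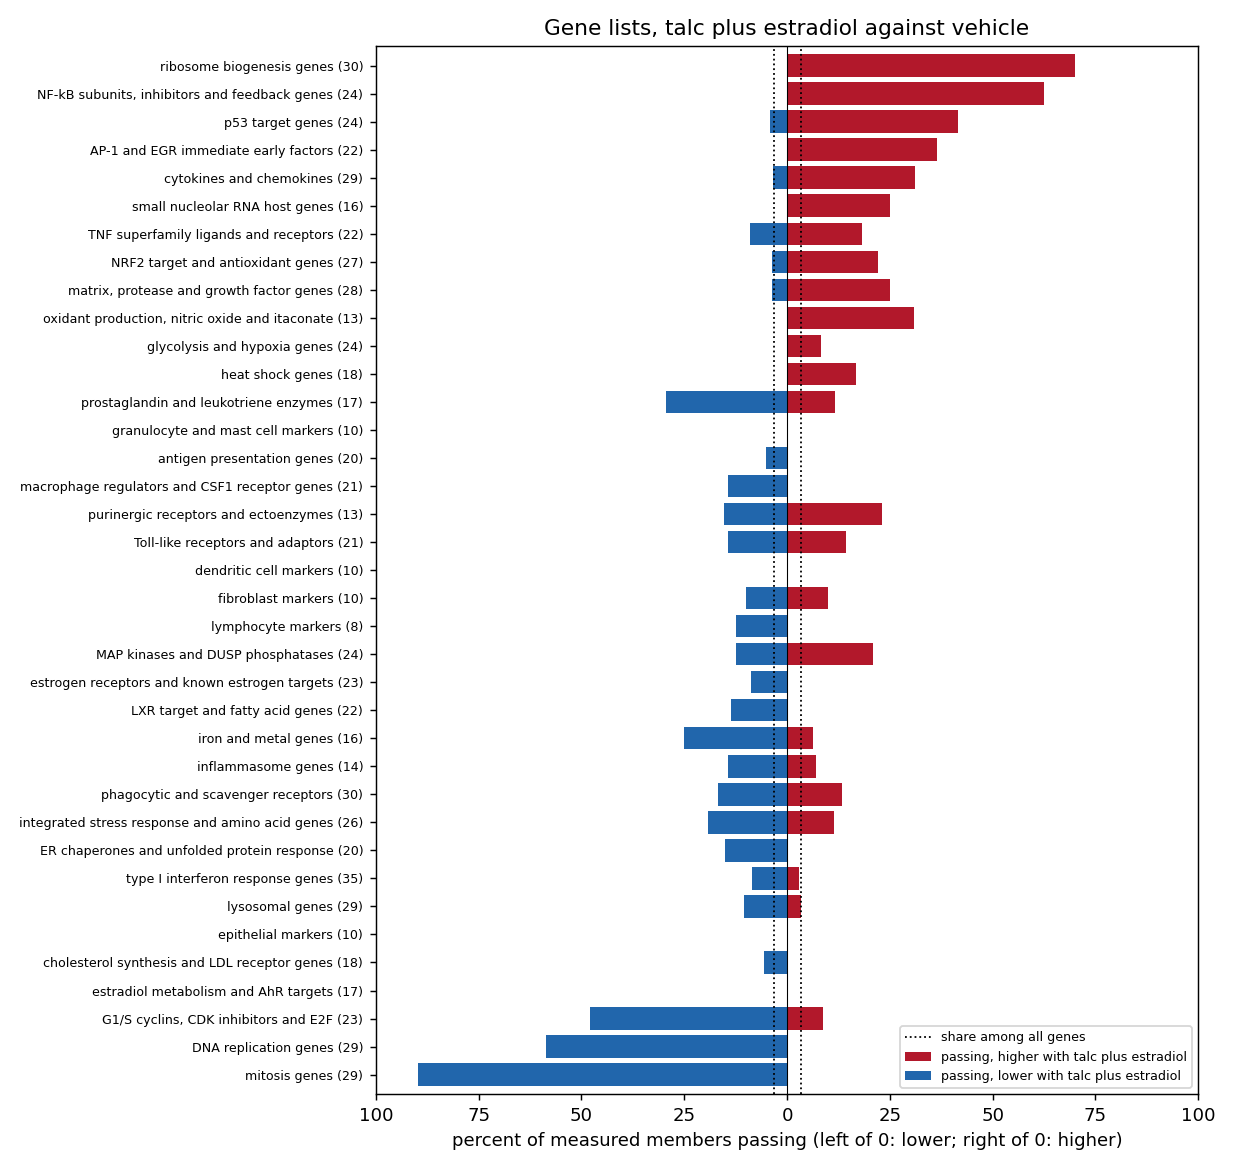
Percent of the measured members of each gene list that passed, drawn to the right for genes higher and to the left for genes lower in talc plus estradiol than in vehicle, with dotted lines at 3.39% and 3.22%, the shares among all genes. Lists are sorted by median difference, with ribosome biogenesis (median 0.58) and mitosis (median -0.71) at the ends.

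Among estrogen receptor genes and estrogen targets, the share that passed (8.7%) was near that of all genes (6.61%). Esr1 averaged 5.59 ± 0.04 in talc plus estradiol, 5.59 ± 0.12 in talc, 5.92 ± 0.13 in estradiol, 5.57 ± 0.32 in TiO2 plus estradiol and 5.83 ± 0.20 in vehicle (SD, n = 3 each). These levels lay close together, and the joint difference from vehicle was -0.24 ± 0.15 (limma adjusted p = 0.44). Esr2 read 4.40, 4.34 and 4.40 in joint arrays, against 4.48, 4.16 and 4.61 in vehicle arrays. Gper1 read 4.01, 4.26 and 4.28 in joint arrays, against 3.91, 4.17 and 3.99 in vehicle arrays. Both overlapped between the groups. Of 23 receptor and target genes, 0 rose and 2 fell. Igfbp4, a carrier of insulin-like growth factors, averaged 7.01 ± 0.04 in talc plus estradiol and 7.86 ± 0.03 in vehicle (SD, n = 3 each). It fell by 0.86 with no overlap, and the other gene that fell was the cyclin gene Ccnd1. The classical targets Greb1 and Pgr did not pass, at -0.15 ± 0.17 and -0.16 ± 0.15. Of 17 estradiol metabolism and aryl hydrocarbon receptor genes, 0 passed.

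The joint exposure was then set against its single components, which share arrays with the comparison above. Against talc alone, 0 of 23102 genes passed in limma, with 1521 at an unadjusted p under 0.05 (6.58%). The 95% interval of this difference lay within 2-fold in either direction for 97.7% of the genes. For joint exposure against vehicle it did so for 96.0%, so such a share cannot show that 2 exposures match. Estradiol alone against vehicle gave 0 (1124 unadjusted, 4.87%). Joint exposure against estradiol alone gave 1647 genes (7.13%), 953 higher (4.13%) and 694 lower (3%). That count was 904 without joint array 3, 1034 without joint array 1, 1010 without estradiol array 2 and 1050 without estradiol array 1. Over the 784 higher genes the median difference from vehicle was 0.53 with both agents, 0.50 with talc alone and 0.01 with estradiol alone. Over the 743 lower genes it was -0.58, -0.62 and -0.06. These differences share the vehicle arrays, and the genes were chosen by the joint one. With talc alone the list medians were -0.85 for mitosis, 0.72 for ribosome biogenesis and 0.48 for NF-kB, beside 0.018 over all genes. Fos and Tgfbi are given as single genes. Fos averaged 6.45 in talc plus estradiol, 6.67 in talc, 4.50 in estradiol and 4.36 in vehicle. The joint minus talc difference of Fos was -0.22, with a 95% interval of -0.54 to 0.09. For Tgfbi it was 0.16, with an interval of -0.05 to 0.38.

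**Figure D5:**
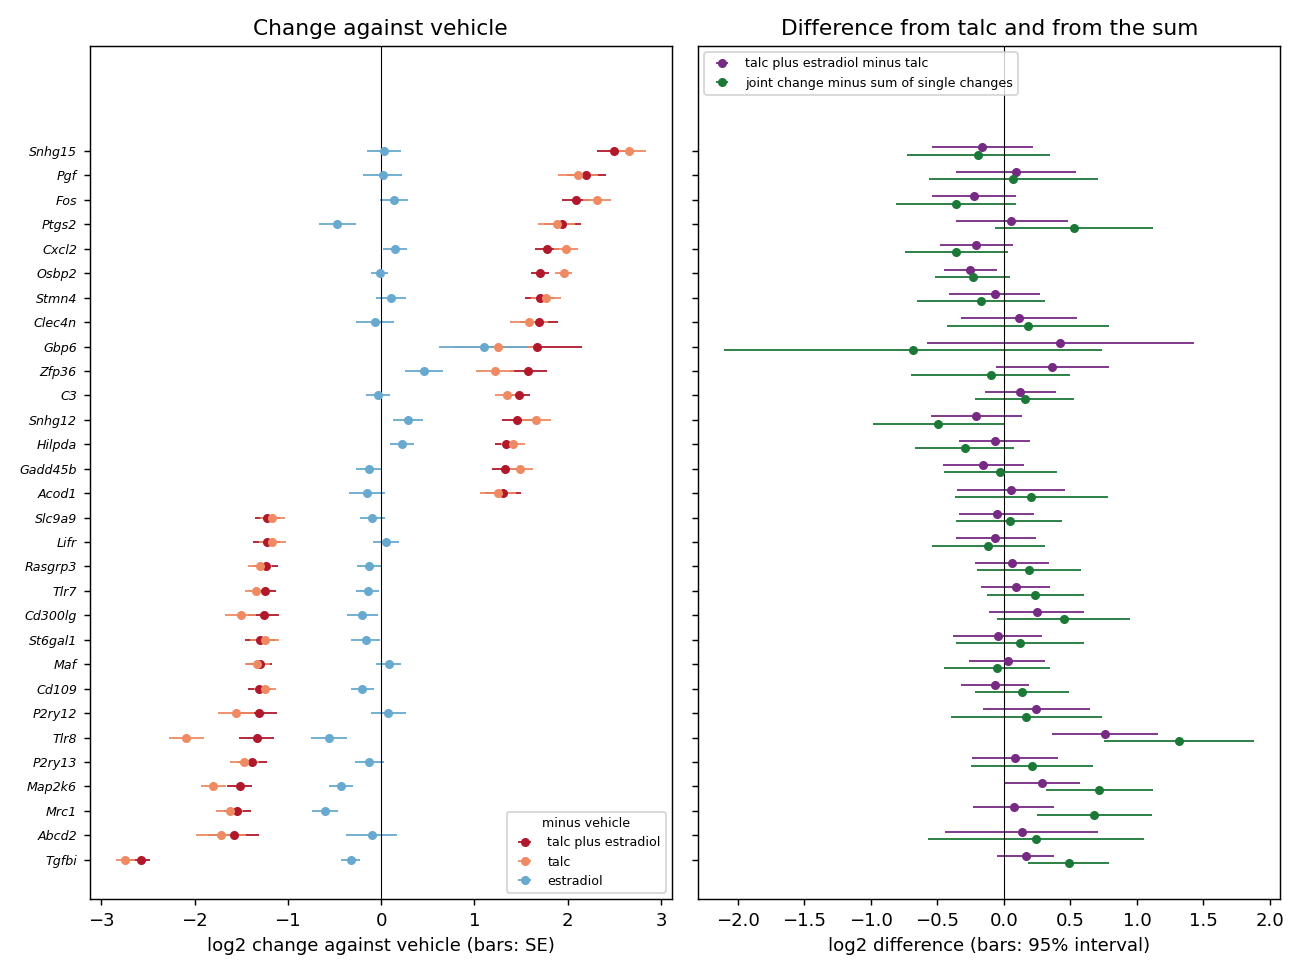
Left, log2 difference from vehicle with its standard error for talc plus estradiol, talc and estradiol in 30 genes; right, the joint minus talc difference and the joint change minus the sum of the single changes, with 95% intervals. Both talc-containing exposures lie far from 0 on the left, and on the right Tlr8 stands above 0 at 0.76 and 1.32.

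Whether the joint change equalled the sum of the talc and estradiol changes was tested by the interaction. No gene passed in limma, 1460 had an unadjusted p under 0.05 (6.32%), and the 95% interval lay within 2-fold for 88.5% of the genes. The smallest p belonged to Chst15, a sulfotransferase of chondroitin sulfate. Chst15 read 3.28, 3.21 and 3.50 in talc plus estradiol, 4.15, 3.99 and 3.82 in talc, 3.82, 3.84 and 3.91 in estradiol, and averaged 3.52 ± 0.08 in vehicle. The joint level was below both single exposures, and the joint change lay below the sum, with a 95% interval of -1.34 to -0.66 (limma adjusted p = 0.24). That interval is not adjusted for picking the smallest p. The mean joint and vehicle levels lay below the lower quartile of probe set intensity. The mean difference of Chst15 from vehicle was -0.19, whereas its brightest probe set gave -2.57 and passed (limma adjusted p = 0.011). Tlr8 averaged 3.89 ± 0.10 in talc, lower than all 3 joint arrays, and 5.42 ± 0.19 in estradiol. Its joint change was 1.32 above the sum (0.75 to 1.88, limma adjusted p = 0.63). Mrc1 and Map2k6 were 0.68 and 0.72 above the sum and Ddit3 0.62 above it, each at a limma adjusted p of 0.64. Tlr8, Mrc1, Map2k6 and Ddit3 were named for other comparisons. The 3 smallest p of the interaction were those of Chst15, Jsrp1 and Fbxw20, leaving out predicted, clone and small RNA genes. The direct joint minus talc differences with the smallest p were those of Chst15 at -0.66, the GTPase Gem at -0.55 and Inka1 at 0.63. Their adjusted p-values were 0.43, 0.43 and 0.58 in limma. With the brightest probe set 1 gene passed against talc. This was Otop3, a proton channel of the otopetrin family, at 3.38 in talc plus estradiol and 6.28 in talc (limma adjusted p = 0.0062). The mean of its probe sets gave -0.57 with an adjusted p of 0.71, and the gene was chosen after its values were seen.

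Set against another particle with estradiol, TiO2 plus estradiol, the joint talc exposure differed in 2201 genes (9.53%), 1539 higher (6.66%) and 662 lower (2.87%). One TiO2 plus estradiol array, replicate 3, stood apart from the other arrays on the second principal component, at 29.76, and without it the count was 1614. Without joint array 3 the count was 1221, and without joint array 1 it was 1457. The share of higher genes was 69.9%, but 51.0% after quantile normalization and 84.1% with array medians subtracted. Tgfbi read 6.21, 6.02 and 6.26 in talc plus estradiol, against 8.16, 8.29 and 8.25 in TiO2 plus estradiol. Fos read 6.35, 6.60 and 6.41 in talc plus estradiol, against 4.51, 4.80 and 4.27 in TiO2 plus estradiol. Snhg15 read 8.70, 8.55 and 9.04 in talc plus estradiol, against 6.05, 5.63 and 5.69 in TiO2 plus estradiol. The 2 particle groups were separate in all these genes, at -2.07, 1.93 and 2.97. In the lists, 20 mitosis genes were lower, 24 ribosome biogenesis genes higher and 17 NF-kB genes higher with talc plus estradiol. TiO2 plus estradiol itself against vehicle gave 0 genes in limma, with 2908 at an unadjusted p under 0.05 (12.6%).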

How the data were processed

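Total RNA of 18 samples, 3 in each of 6 treatment groups, was hybridised to Affymetrix arrays. The deposited values are intensity per probe set on a linear scale, and RMA is named as the tool in the submitters' processing notes; its version is not given in the sources used here. The log2 of each deposited intensity was taken here. Of 269751 probe sets, 233753 carried a single symbol in the platform annotation and gave 23102 genes, the value of a gene being their mean (median 8 probe sets, 2303 genes with 1). Symbols updated from RefSeq gene synonyms numbered 2247. Probe sets with several symbols (5106) or none (30892) entered no gene value, and no gene was filtered out. Groups were taken from the treatment labels. One mean per group was fitted over all 18 arrays with limma 3.58.1 in R 4.3.3, with 12 residual and 4.57 prior degrees of freedom, and p-values were adjusted by the Benjamini-Hochberg method at 0.05. Values and figures were prepared with Python 3.11.15, pandas 2.3.3, matplotlib 3.10.9 and, in R, the data.table package (version 1.17.8).

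Alternatives were the brightest probe set per gene, genes above the median level, centring of arrays on their medians, quantile normalization, array weights, limma's trend option with robust estimation, a fit restricted to the groups in question, single probe sets, and the omission of single arrays. Of 37 gene lists with 800 genes, 772 members were measured. Genes were named as follows: the 15 largest rises and 15 largest falls among passing genes with no overlap between arrays, without predicted, clone and small RNA genes; up to 4 passing genes per list with the smallest p (2 of the other direction); up to 8 per direction in the other comparisons, or the 3 smallest p where none passed; and the estrogen receptors. Some named genes fall outside this rule and were chosen after their values were seen, among them Il1b, Relb, Nfkb1, Nfkb2, Nfkbia, Top2a, Aurkb, Bub1, Cdk1, Cdc20, E2f8, Mdm2, Gnl3, Nos2, Ccl2, Il6, Spp1, Mmp9, Clec4e, Csf1r, Spi1, Greb1, Pgr and other list members. The members and lists were chosen with earlier results of these data known. Sample names carry no number shared between groups, and the numbers in them run through the groups in order, so order and treatment cannot be told apart. Promoters are RefSeq sequences of GRCm38.p6.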

Additional observations from a re-analysis of the deposited data

Results flagged for a closer look

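Among 30892 probe sets with no gene symbol, which entered none of the comparisons above, 6 passed in limma (0.0194%), 1 higher and 5 lower in talc plus estradiol than in vehicle. The higher one, probe set 17550493, averaged 8.06 in talc plus estradiol and 5.95 in vehicle, above the control arrays by 2.12 ± 0.15 (SE, n = 3 each; limma adjusted p = 1.5e-05). Its gene is unnamed here. Among probe sets with several symbols, 52 of 5106 passed (1.02%), 21 higher and 31 lower.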

How the results depend on the processing

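The count for talc plus estradiol against vehicle (1527) was 825 with the brightest probe set, 2292 among genes above the median level, 787 in a fit restricted to the compared groups, and 798 to 1608 with 1 array left out; 51.3% were higher, against 58.4% (851 and 605 genes) with array medians subtracted and 38.1% for single probe sets. Against estradiol alone (1647) the counts were 856, 2483, 988 and 904 to 1231; 57.9% were higher, 69.8% with array medians subtracted and 41.9% with the brightest probe set. The 2292 and 2483 came from refits of the genes above the median level alone, with adjustment over those genes only. They therefore do not stand on the base of all genes and are no stronger result. Against TiO2 plus estradiol (2201) they were 1248 with the brightest probe set (38.8% higher), 812 in a fit restricted to these groups, 1738 after quantile normalization, 2741 with array medians subtracted (2306 and 435), and 1221 to 1738 with 1 array left out. Against talc alone 1 gene passed with the brightest probe set and 0 under every other setting run, leave-one-out included. The interaction gave 0 under every setting run. Of 191 named genes that passed, 102 kept their call under every setting run. The brightest probe set ended 69 calls and reversed Lifr (0.13), Nr4a2 (-0.10), Atf6 (0.025), Bcl3 (-0.19), Ccl7 (-0.002) and Trmt61a (-0.092); the cause was not tested. Leaving out joint array 3 ended 51 calls, vehicle array 2 46 and vehicle array 1 43. Leaving out TiO2 plus estradiol array 3 and the lists under each setting were added after seeing the data. No paired analysis was possible because the sample names share no replicate number across groups. With 3 arrays a group, the median standard error was 0.151 log2 units, and 0.213 for the interaction.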

Other observations

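Genes whose symbols share a stem gave a further view of joint exposure, chosen after their values were seen and described by counts alone, beside 3.39% of all genes higher and 3.22% lower. Among the 146 stems with at least 15 genes, mitochondrial ribosomal proteins (Mrpl) had 8 of 48 genes higher (16.7%, median 0.23). Mrpl52 averaged 8.98 ± 0.11 in talc plus estradiol and 7.95 ± 0.12 in vehicle (SD, n = 3 each), a rise of 1.04 ± 0.15 (limma adjusted p = 0.00049), and Mrpl38 rose by 0.67. RNA helicases of the Ddx family had 7 of 35 higher (20.0%), among them Ddx21, Ddx28 and Ddx56 at 0.80, 0.75 and 0.68. The tRNA methyltransferases (Trmt) had 4 of 17 higher (23.5%). Trmt61a rose by 1.19, although its brightest probe set gave -0.09, and Trmt2b fell by 0.54. Histone lysine demethylases (Kdm) had 3 of 18 higher, with Kdm5b at 0.71 and Kdm6b at 0.52. Kdm6b kept its call without vehicle array 3 and lost it without any other 1 array of these groups (limma adjusted p up to 0.19), and Kdm5b lost it with the brightest probe set (0.85, adjusted p = 0.11). Ddx56 and Trmt2b also lost theirs there, at 0.64 and -0.28.

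Kinesin motors (Kif) had 11 of 38 genes lower (28.9%). Kif15, a mitotic kinesin, averaged 7.51 ± 0.19 in talc plus estradiol and 8.64 ± 0.07 in vehicle, a fall of 1.13 ± 0.11 (limma adjusted p = 1.9e-05). Centrosomal proteins (Cep) had 7 of 35 lower (20.0%), with Cep128 at -0.79 and Cep55, which acts at the end of cell division, at -0.73. Aldehyde dehydrogenases (Aldh) had 4 of 21 lower (19.0%), with Aldh18a1 of proline synthesis at -0.64. Galnt12, an enzyme that starts O-linked sugar chains, fell by 0.59, and the lipid transporter gene Abca6 averaged 1.12 ± 0.14 lower (limma adjusted p = 0.00014). Their brightest probe sets gave -0.33 for Galnt12 and -0.02 for Abca6, with adjusted p-values of 0.42 and 0.99. Galnt12 also lost its call without joint array 1 or vehicle array 3 (0.056 and 0.053), and Aldh18a1 without vehicle array 2 or vehicle array 3 (0.055 and 0.057).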
